A study of Mus musculus with 24 samples.

Results

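The metallothioneins are small cysteine-rich proteins that bind zinc and copper in the cytosol, and in rodents their transcripts are known to respond to metals, glucocorticoids, cytokines and several kinds of cell stress. The transcription factor MTF1 senses free zinc and binds metal response elements in the promoters of *Mt1*, *Mt2* and *Slc30a1*. Zinc leaves the cytosol through SLC30 (ZnT) proteins and enters it through SLC39 (ZIP) proteins, and the liver is an organ in which both are known to set zinc handling for the whole body. The 6 genes described here are *Mt1*, *Mt2*, *Mt3*, the metal-responsive factor *Mtf1*, the zinc exporter *Slc30a1* and the zinc importer *Slc39a14*, out of 24532 genes in the deposited table. They were taken by symbol from that table because of their measured difference between LKO and Ctrl mice, so that their LKO against Ctrl values are given as a description with no test.

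Bulk RNA-seq covered the liver, the inguinal fat depot (iWAT), a skeletal muscle (GM) and the hypothalamus of C57BL/6 mice, labelled as 8 weeks old. LKO mice were Alb-Cre;Crif1flox/flox, with Cre driven by the albumin promoter, and Ctrl mice were Crif1flox/flox without Cre, so that both carried the floxed *Crif1* allele and only LKO mice carried Cre. There were 3 libraries per genotype and tissue, 24 in all. Which libraries share a mouse is not given in the labels, so that p-values measure the spread between these samples, which may be technical. *Crif1*, listed as *Gadd45gip1*, stood at 14.6, 12.5 and 13.6 FPKM in the liver libraries of Ctrl mice and at 5.4, 2.0 and 2.51 FPKM in those of LKO mice. Whole tissue was sequenced, in which fewer cells of a type and less RNA per cell cannot be told apart.

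Values are FPKM, the fragments of a gene per kilobase of its transcript relative to the library's total, so that genes of different length can be compared. Depth was between 4.45 and 8.09 gigabases per library, and 5.42 to 8.09 for Ctrl against 4.70 to 5.54 for LKO livers. The summed FPKM of 4 hepatocyte markers was 40722 to 66563 in the liver libraries and at most 246 in any other tissue, that of 4 adipocyte markers 19613 to 25364 in iWAT, that of 4 muscle markers 75123 to 82670 in GM and that of 5 neuron markers 2333 to 2743 in hypothalamus. Fold changes are LKO against Ctrl on log2(FPKM + 1), fitted with limma within each tissue. The median log2 fold change of all 10956 genes tested in liver was 0.33 as deposited and -0.04 with median-ratio scaling, in which each library is divided by the median ratio of its genes to a common reference. The liver values of the members, and the medians of the gene lists, are given on both scales where they differ in direction.

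*Mt3*, *Mt2* and *Mt1* lie in this order on the plus strand of chromosome 8 in the mm10 build. *Mt3* (NCBI Gene 17751) spans 94152607 to 94154148, *Mt2* (17750) 94172618 to 94173567 and *Mt1* (17748) 94179089 to 94180327, which leaves 18469 bases between *Mt3* and *Mt2* and 5521 between *Mt2* and *Mt1*. Their transcripts can be told apart by sequence, since the longest shared run is 20 bases for *Mt1* and *Mt2* and 27 for *Mt1* and *Mt3*. None of the 3 shares a 100-base window with a transcript of any other gene in GENCODE M21. The 250 bases before the RefSeq start of each gene (GRCm38, plus strand) are shown because *Mt1* and *Mt2* were both far higher in LKO liver while *Mt3* was listed at 0 there. Capitals mark the core of the metal response element, TGCACNC or TGCGCNC, searched on both strands (a match on the minus strand is capitalised as it reads on the plus strand).
Mt1, chr8:94178839-94179088: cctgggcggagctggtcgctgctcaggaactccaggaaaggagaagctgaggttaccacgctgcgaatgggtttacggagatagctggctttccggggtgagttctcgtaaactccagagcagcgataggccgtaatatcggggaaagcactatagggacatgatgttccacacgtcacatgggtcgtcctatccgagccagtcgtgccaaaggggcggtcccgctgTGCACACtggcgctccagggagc
Mt2, chr8:94172368-94172617: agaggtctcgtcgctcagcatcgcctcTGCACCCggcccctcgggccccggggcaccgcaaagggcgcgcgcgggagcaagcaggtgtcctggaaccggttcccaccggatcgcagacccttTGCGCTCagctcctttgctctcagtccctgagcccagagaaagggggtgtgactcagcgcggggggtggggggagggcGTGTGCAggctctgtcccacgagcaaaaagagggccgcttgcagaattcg
Mt3, chr8:94152357-94152606: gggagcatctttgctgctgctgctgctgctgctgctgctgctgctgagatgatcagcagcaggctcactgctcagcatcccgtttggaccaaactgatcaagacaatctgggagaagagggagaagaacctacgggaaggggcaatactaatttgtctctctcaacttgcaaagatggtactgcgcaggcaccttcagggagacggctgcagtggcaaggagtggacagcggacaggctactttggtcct

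The *Mt1* window held 1 metal response element core, the *Mt2* window 3 and the *Mt3* window 0. Of the 32851 RefSeq promoter windows of this length, 21.4% held at least 1 core and 1.26% at least 3. GENCODE M21 has further starts for both genes. For *Mt1* the stretch before the start at 94179082 held 1 core and the 250 bases before those at 94179211 and 94179241 held 5 each, 3 of the first form and 2 of the second, which began at bases -175, -150, -132, -68 and -54 from the latter. For *Mt2* the windows before the starts at 94172664 and 94172860 held 3 and 4 cores. As these starts were added after the RefSeq windows had been searched, their counts are not set against the shares above. The window of *Slc30a1* (NCBI Gene 22782, chromosome 1 from 191906781 to 191913247, plus strand) held 1 core and that of *Mtf1* (17764, chromosome 4 from 124802549 to 124849800, plus strand) held 0. *Slc39a14* (213053) lies on the minus strand of chromosome 14 from 70303467 to 70351424. The window of *Mt1* also held a glucocorticoid response element (GNACA, any 3 bases, TGTNC) at bases -94 to -82, in a class of 0.387% of windows, and those of *Mt2* and *Slc30a1* an antioxidant response element (TGACNNNGC), in a class of 10.2%, which also stood before both inner starts of *Mt1*. No member's window held the C/EBP-ATF element TGATGNAAT (0.816% of windows) or the STAT element TTCNNNGAA (7.02%). These matches say only that the letters are present in the window.

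In LKO liver *Mt1* and *Mt2*, the metallothioneins of most tissues, were far above every Ctrl library, while *Mt3* was listed at 0 and *Mtf1*, *Slc30a1* and *Slc39a14* overlapped between the groups. *Mt1* measured 9.45, 15.8 and 15.1 FPKM in Ctrl and 214, 375 and 427 FPKM in LKO. The lowest LKO liver was 13.6 times the highest Ctrl liver, and LKO 1 was the lowest of its group. The means were 13.4 ± 3.47 and 339 ± 111 FPKM (SD, n = 3), a ratio of 25.2 and a log2 fold change of 4.53 (standard error 0.29). *Mt2* was 2.47, 2.96 and 3.72 FPKM in Ctrl and 113, 230 and 246 FPKM in LKO livers. Here too LKO 1 was lowest. The *Mt2* means were 3.05 ± 0.631 and 197 ± 72.5 FPKM (SD, n = 3), a ratio of 64.4 and a log2 fold change of 5.54 (standard error 0.29). By the size of the rise *Mt2* was in place 3 and *Mt1* in place 8 of the 10956 genes tested in liver, and by mean level *Mt1* went from place 3320 in Ctrl to place 211 in LKO liver and *Mt2* from 7728 to 384. Beside these values, which chose the genes, 53.0% of all tested liver genes had every LKO library above every Ctrl library and 27.4% were called in either direction by the rule used below for other genes. After median-ratio scaling the log2 fold changes were 4.10 for *Mt1* and 5.15 for *Mt2*.

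*Mt3*, the form known from brain, was listed at 0 FPKM in all 6 livers, and *Mt4*, the form known from stratified epithelia, was listed at 0 in all 24 libraries of the series. The zinc sensor and the transporters overlapped between the groups in liver. *Mtf1* was 2.42, 2.79 and 2.65 FPKM in Ctrl and 2.49, 3.22 and 3.41 FPKM in LKO livers, and its log2 fold change of 0.15 (standard error 0.13) became -0.18 after median-ratio scaling. *Mtf1* overlaps *1110065P20Rik* on the opposite strand, which was at 14.1 to 49.7 FPKM over the series, and without strand information their reads cannot be told apart where they overlap. *Slc30a1*, the exporter of the cell surface, was 6.34, 7.21 and 4.74 FPKM in Ctrl and 7.0, 8.18 and 6.98 FPKM in LKO livers, with a log2 fold change of 0.25 (standard error 0.16) that became -0.13 after scaling. *Slc39a14*, an importer of zinc, iron and manganese that hepatocytes carry, was 19.0, 28.5 and 22.9 FPKM in Ctrl and 25.4, 26.5 and 28.1 FPKM in LKO livers, with 0.20 (standard error 0.15) that became -0.23. For these 3 genes 1 or more Ctrl livers lay within or above the LKO range, and the sign of the difference depended on the scaling.

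Markers of other cells were compared in the same livers on the deposited scale, whose liver median lay at 0.33. LKO and Ctrl livers were fully apart for 53.0% of tested genes with LKO higher and for 8.10% with LKO lower. The marker counts below stand beside these shares, and whether they reflect a change of cell types was not tested. All 5 macrophage and monocyte markers were higher in every LKO liver than in every Ctrl liver, with a summed level of 20.1 to 21.7 FPKM in Ctrl and 46.5 to 84.9 FPKM in LKO, and 2 of 4 neutrophil markers, with sums of 0.934 to 1.42 and 7.28 to 9.44 FPKM. None of these markers was at 0 in all livers. Of the 4 hepatocyte markers, 2 were lower in every LKO liver. The summed level of 4 adipocyte markers was 12.4 to 13.3 FPKM in Ctrl and 20.98 to 28.6 FPKM in LKO livers, with 1 of the 4 higher in every LKO library. Of the markers listed for mammary epithelium, 3 of 4 were higher in every LKO liver (sums of 192 to 284 and 668 to 783 FPKM), among them the keratins *Krt8* and *Krt18*, which hepatocytes are known to express too, while *Csn3*, which codes for a casein, was at 0 in all livers. The sum of 4 astrocyte markers was 434 to 519 FPKM in Ctrl and 259 to 348 FPKM in LKO, with 2 of the 4 genes higher and 1 lower in every LKO liver. The sums of the neuron markers (2.57 to 3.23 and 1.23 to 1.54 FPKM, with *Avp*, *Oxt* and *Pmch* at 0), the lymph node markers (0.651 to 0.931 and 1.07 to 1.66 FPKM) and the choroid plexus markers (0.0340 to 0.0673 and 0.106 to 0.212 FPKM) did not overlap either. The part of these cells in the *Mt1* and *Mt2* values was not tested.

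**Figure D1:**
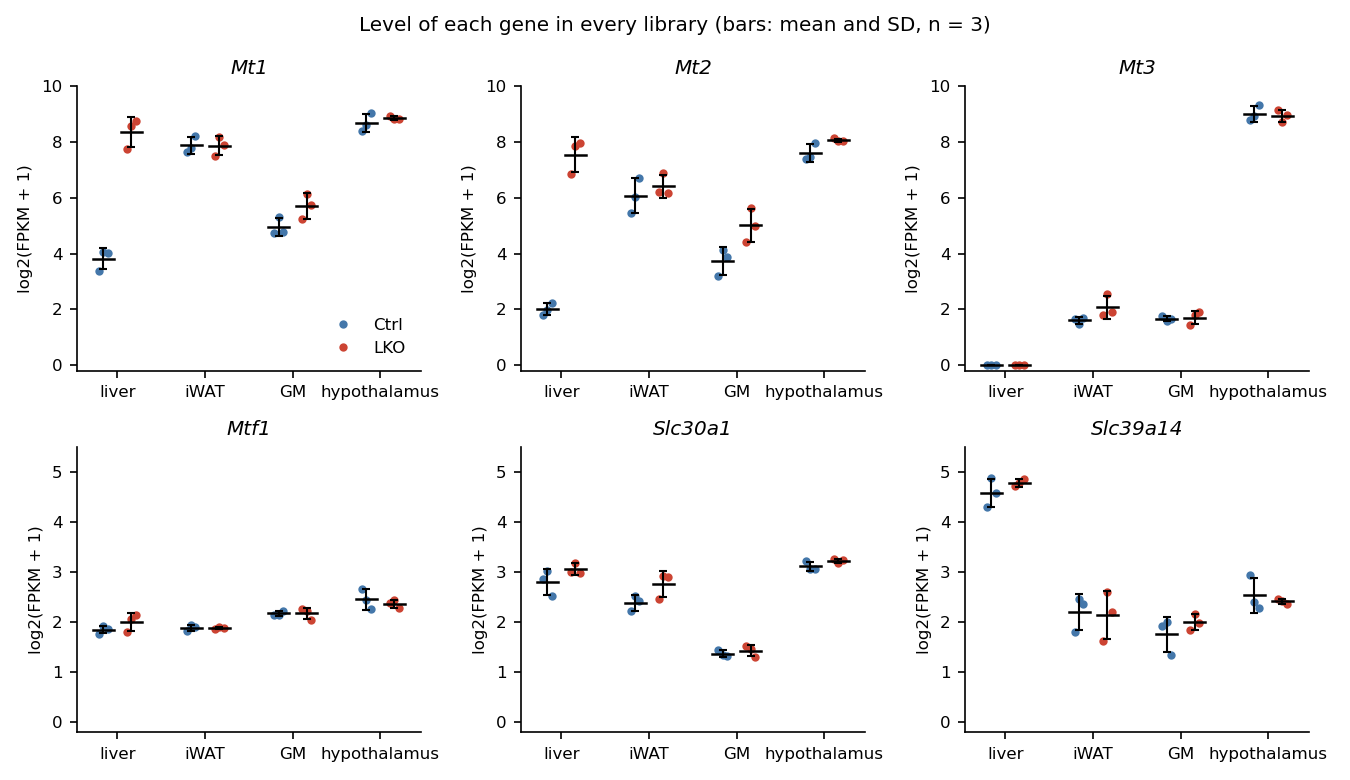
Level of the 6 genes in each of the 24 libraries, as log2(FPKM + 1) on the vertical axes, by tissue, with Ctrl in blue and LKO in red (points are libraries, bars the mean and SD, n = 3). The red points of *Mt1* and *Mt2* in liver (214 to 427 and 113 to 246 FPKM) lie far above the blue ones (9.45 to 15.8 and 2.47 to 3.72 FPKM), whereas *Mtf1*, *Slc30a1* and *Slc39a14* overlap in all tissues.

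Outside the liver, GM was the tissue with the next largest differences of *Mt1* and *Mt2*. *Mt1* was 25.6, 38.8 and 26.4 FPKM in Ctrl and 36.5, 69.5 and 52.0 FPKM in LKO muscle, so that the lowest LKO library lay below the highest Ctrl library. Its log2 fold change was 0.75 (standard error 0.25). *Mt2* was 8.08, 16.6 and 13.8 FPKM in Ctrl and 20.5, 48.2 and 31.1 FPKM in LKO muscle, without overlap, and had a log2 fold change of 1.28 (standard error 0.34). *Mt2* was in place 11 and *Mt1* in place 38 of 10877 genes by the size of the rise, in a tissue in which 4.38% of genes had every LKO library above every Ctrl library. The remaining members in GM had log2 fold changes of 0.04 (*Mt3*), 0.00 (*Mtf1*), 0.06 (*Slc30a1*) and 0.24 (*Slc39a14*), with overlapping groups for each. The summed level of the 5 macrophage and monocyte markers was also higher in every LKO muscle, at 10.01 to 11.3 FPKM in Ctrl and 11.7 to 19.6 FPKM in LKO, with 1 of the 5 markers above every Ctrl library, and its part in the *Mt2* values was not tested.

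In hypothalamus *Mt2* was 165, 174 and 251 FPKM in Ctrl and 277, 262 and 259 FPKM in LKO, without overlap, with a log2 fold change of 0.46 (standard error 0.15). Such a separation was seen for 4.74% of the 13828 genes tested there. *Mt1* was 333, 393 and 518 FPKM in Ctrl and 487, 447 and 447 FPKM in LKO, with a log2 fold change of 0.17 (standard error 0.16) and overlapping groups. *Mt3* overlapped as well, with 436, 484 and 631 FPKM in Ctrl and 567, 420 and 495 FPKM in LKO. All members varied less among the LKO than among the Ctrl hypothalami, so that this was not particular to *Mt1* and *Mt2*. The SDs were 23.1 against 94.6 FPKM for *Mt1*, 9.60 against 46.8 for *Mt2* and 73.2 against 102 for *Mt3*. They were 0.272 against 0.778 FPKM for *Mtf1*, 0.275 against 0.552 for *Slc30a1* and 0.150 against 1.51 for *Slc39a14*. Of 4 pituitary markers, 3 were also higher in every LKO hypothalamus, with sums of 85.6 to 128 FPKM in Ctrl and 177 to 699 FPKM in LKO (none at 0 in all 6 libraries). The sums of the muscle markers (7.21 to 10.9 and 12.5 to 13.2 FPKM, 2 of 4 genes higher), the mammary epithelium markers (3.00 to 3.54 and 3.89 to 5.89 FPKM, 1 of 4 higher, *Csn3* at 0) and the lymph node markers (0.239 to 0.310 and 0.0570 to 0.189 FPKM, 2 of 4 lower) did not overlap there either. The part of these cells in the *Mt2* values was not tested.

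In iWAT the *Mt1* values covered one another, with 196, 221 and 292 FPKM in Ctrl and 181, 288 and 236 FPKM in LKO, and a log2 fold change of -0.01 (standard error 0.21). *Mt2* was 43.0, 64.7 and 103 FPKM in Ctrl and 72.1, 118 and 70.1 FPKM in LKO, overlapping too, with a log2 fold change of 0.34 (standard error 0.34). *Mt3* was low in this tissue at 2.15, 1.76 and 2.26 FPKM in Ctrl and 2.48, 4.85 and 2.72 FPKM in LKO, without overlap, as for 9.76% of the 12288 genes tested in iWAT. *Slc30a1* had its largest difference here, with 3.67, 4.75 and 4.37 FPKM in Ctrl, 4.53, 6.58 and 6.52 FPKM in LKO and a log2 fold change of 0.38 (standard error 0.15). Its lowest LKO library lay below the highest Ctrl library. The summed level of 4 muscle markers ranged from 27.5 to 692 FPKM over the iWAT libraries, with overlapping groups. The sums of 3 other marker lists did not overlap in iWAT, namely the neutrophil markers (2.19 to 3.36 FPKM in Ctrl and 5.39 to 17.7 FPKM in LKO, with 2 of 4 genes higher in every LKO library), the hepatocyte markers (15.9 to 27.3 and 36.7 to 54.0 FPKM, 1 of 4 genes) and the adipocyte markers (19613 to 23110 and 23803 to 25364 FPKM, 1 of 4 genes higher and 1 lower). Their part in the *Mt3* values was not tested.

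**Figure D2:**
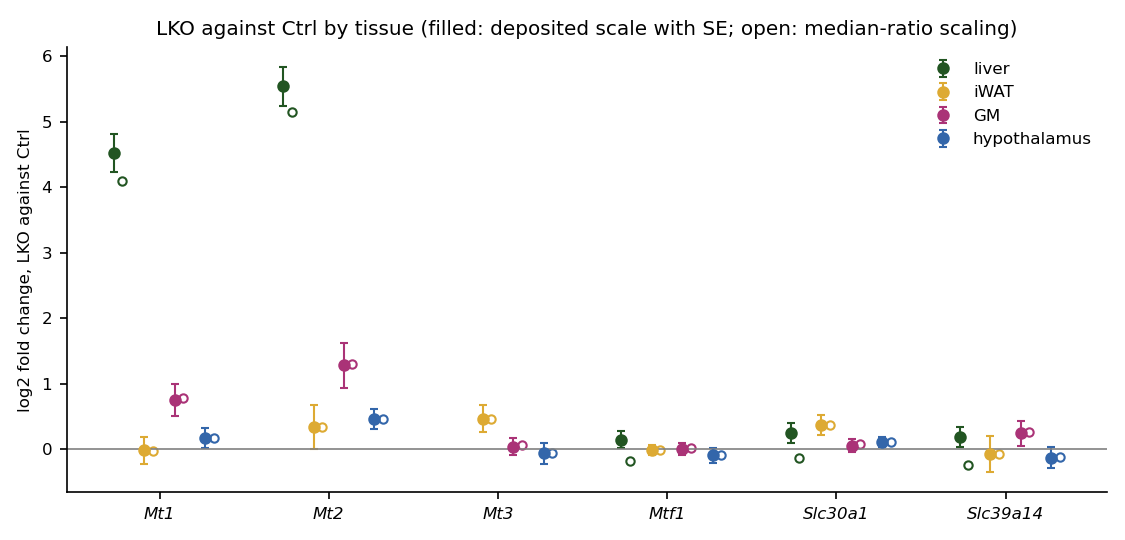
Log2 fold change of LKO against Ctrl for each gene and tissue, with filled points and standard errors for the deposited scale and open points for median-ratio scaling (n = 3 per group). The liver points of *Mt1* (4.53 and 4.10) and *Mt2* (5.54 and 5.15) stand apart, and the liver points of *Mtf1*, *Slc30a1* and *Slc39a14* change sign between the scales.

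The difference of *Mt2* exceeded that of *Mt1* in each tissue. It can be read within a library as the ratio of *Mt2* to *Mt1*, a measure that library scaling leaves as it is. In Ctrl livers this ratio was 0.262, 0.188 and 0.247, and in LKO livers 0.530, 0.615 and 0.576. In GM it was 0.315, 0.427 and 0.521 in Ctrl and 0.564, 0.694 and 0.598 in LKO. In hypothalamus it was 0.497, 0.444 and 0.484 in Ctrl and 0.569, 0.587 and 0.580 in LKO. The groups did not overlap in these 3 tissues, and did in iWAT, with 0.220, 0.292 and 0.354 in Ctrl and 0.399, 0.409 and 0.297 in LKO. Liver had the lowest mean ratio of the Ctrl tissues (0.232 ± 0.0391, SD, n = 3), while the mean of LKO livers (0.574 ± 0.0423) was within the range of the LKO libraries of GM and hypothalamus. Since the genes were chosen on the same contrast, these ratios are a description.

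**Figure D3:**
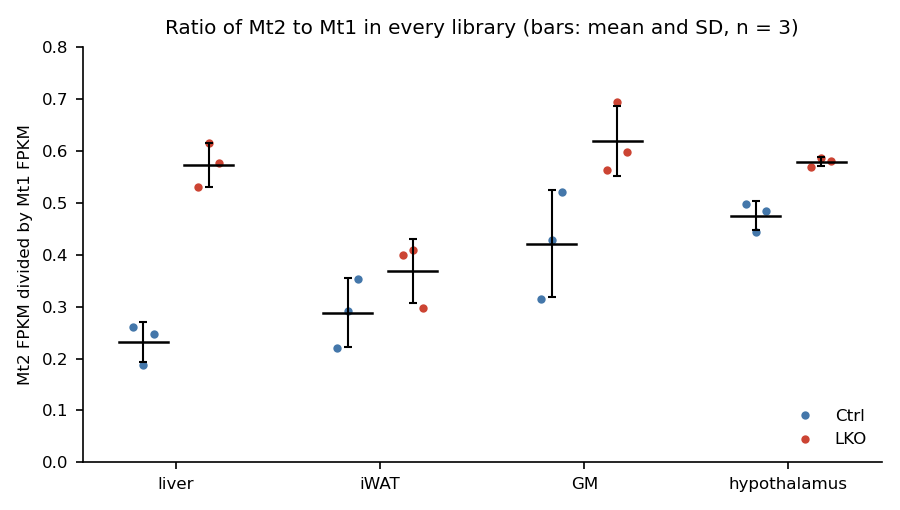
*Mt2* FPKM divided by *Mt1* FPKM in every library by tissue, with Ctrl in blue and LKO in red (points are libraries, bars the mean and SD, n = 3). In liver the ratio lies between 0.188 and 0.262 in Ctrl and between 0.530 and 0.615 in LKO, and iWAT is the tissue in which the groups overlap.

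Over the 24 libraries, *Mt1* and *Mt2* were each other's most similar gene among 15979 genes with a mean of at least 1 FPKM in any group (Pearson r = 0.98 on log2(FPKM + 1)). Next after *Mt2* in likeness to *Mt1* came *Cd9* (0.95), *Gm7334* (0.94), *Aldh18a1* (0.94) and *Rad18* (0.94), and next after *Mt1* in likeness to *Mt2* came *Aldh18a1* (0.93), *Cd9* (0.93), *Plk2* (0.91) and *Lysmd2* (0.91). These coefficients follow the differences between tissues and genotypes that the libraries share. *Aldh18a1*, an enzyme of proline synthesis, for example, had means of 0.323 FPKM in Ctrl liver, 7.14 in LKO liver, 5.73 in Ctrl iWAT, 1.69 in Ctrl GM and 9.47 in Ctrl hypothalamus.

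With each group's mean taken off, so that only the spread among replicates is left, *Mt1* and *Mt2* were again the most similar to each other (r = 0.88 over 24 libraries). *Apbb3* (0.84), *Cyp26b1* (0.83), *Cxcl14* (0.81) and *Gabarapl1* (0.81) followed for *Mt1*, and *Ier3* (0.81), *Cxcl14* (0.79), *Cyp26b1* (0.78) and *Tpbgl* (0.76) for *Mt2*. *Cyp26b1* degrades retinoic acid, *Cxcl14* is a chemokine and *Ier3* an immediate early gene. Replicate 1 held the lowest *Mt1* value in 7 of the 8 groups and the lowest *Mt2* value in 6 of 8, and the labels do not say what a replicate number stands for.

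**Figure D4:**
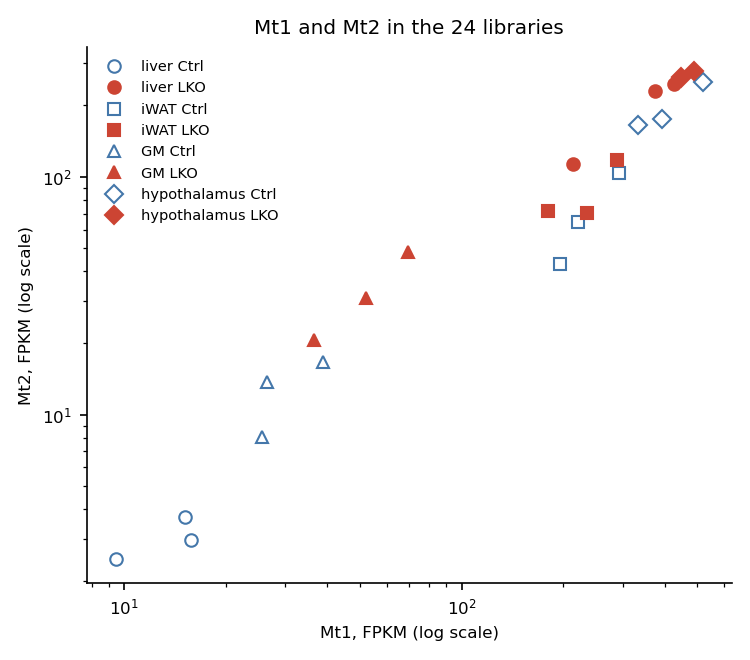
*Mt1* (horizontal) against *Mt2* (vertical) in FPKM on log scales for the 24 libraries, with open blue symbols for Ctrl, filled red ones for LKO and a shape per tissue. The Ctrl livers are the lowest of all libraries in both genes, and the LKO livers lie among the iWAT and hypothalamus libraries.

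The 12 Ctrl libraries were compared between tissues with limma, with Benjamini-Hochberg adjustment over 15320 genes. They are also 1 side of the LKO against Ctrl differences that chose the genes, so that the levels of *Mt1*, *Mt2* and *Mt3*, each of which had LKO and Ctrl apart in at least 1 tissue, are given as a description with no test. The F test over the 4 Ctrl tissues was passed by 99.0% of all genes, and nothing is read from it. Between pairs of Ctrl tissues most genes differed too. The share of all genes with a limma adjusted p under 0.05 was 79.8% for liver against iWAT, 71.7% for liver against GM, 87.7% for liver against hypothalamus, 76.6% for iWAT against GM, 80.9% for iWAT against hypothalamus and 85.7% for GM against hypothalamus.

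*Mt1* had a mean of 13.4 ± 3.47 FPKM in Ctrl liver, 30.3 ± 7.40 in GM, 237 ± 50.1 in iWAT and 415 ± 94.6 in hypothalamus (SD, n = 3). *Mt2* had the same order, with 3.05 ± 0.631, 12.8 ± 4.34, 70.4 ± 30.6 and 197 ± 46.8 FPKM. The LKO livers, at 214 to 427 FPKM of *Mt1*, overlapped with the Ctrl libraries of iWAT (196 to 292 FPKM) and of hypothalamus (333 to 518 FPKM).

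*Mt3* was a transcript of the hypothalamus, at 517 ± 102 FPKM in Ctrl, against 2.06 ± 0.261 in iWAT and 2.18 ± 0.182 in GM, a log2 difference of -0.06 (standard error 0.12) between the latter pair. It made up 45.1 to 46.7% of the summed FPKM of *Mt1*, *Mt2* and *Mt3* in Ctrl hypothalamus. *Mtf1* varied least, from 2.62 ± 0.186 FPKM in liver and 2.71 ± 0.147 in iWAT through 3.53 ± 0.153 in GM to 4.54 ± 0.778 in hypothalamus. Between liver and iWAT its log2 difference was -0.04 (standard error 0.10). *Slc30a1* went from 1.59 ± 0.120 FPKM in GM through 4.27 ± 0.549 in iWAT and 6.09 ± 1.25 in liver to 7.71 ± 0.552 in hypothalamus. Liver and hypothalamus were nearest to each other, with a log2 difference of -0.31 (standard error 0.13). *Slc39a14* was the one member highest in liver, at 23.5 ± 4.78 FPKM, where each of the other tissues was lower by at least 2.05 on the log2 scale. Its levels in GM (2.46 ± 0.791), iWAT (3.74 ± 1.09) and hypothalamus (4.95 ± 1.51) were nearer to one another. GM was below hypothalamus by a log2 difference of -0.78 (standard error 0.24). Neighbours in this order were nearer, with 0.45 for iWAT against GM and -0.33 for iWAT against hypothalamus (standard error 0.24 for each).

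The other zinc transporters were compared to place the members in their families. A gene was called with a fold change of at least 1.5 and a limma p under 0.05 after adjustment over every gene tested in that tissue. In liver, of 9 other SLC30 genes 6 were tested, of which 1 rose and 1 fell, and of 13 other SLC39 genes 9 were tested, of which 1 rose and 0 fell. Of all liver genes 23.9% were called higher and 3.50% lower. *Slc30a10*, a manganese exporter of the SLC30 family, fell from 15.1 ± 0.684 to 6.85 ± 2.65 FPKM (SD, n = 3), without overlap, by 1.09 on the log2 scale (standard error 0.24, limma adjusted p = 0.013). In all, 8.10% of liver genes had every LKO library below every Ctrl library. *Slc30a4*, which loads zinc into vesicles, rose from 2.05 ± 0.182 to 4.27 ± 1.18 FPKM (log2 fold change 0.76 with a standard error of 0.18, limma adjusted p = 0.016). *Slc39a11*, a ZIP family member, rose from 8.74 ± 0.539 to 15.2 ± 1.88 FPKM (log2 fold change 0.73 with a standard error of 0.12, limma adjusted p = 0.0053). The median log2 fold change was 0.26 for the SLC30 and 0.34 for the SLC39 list, beside 0.33 for all tested genes, and after median-ratio scaling it was -0.10 and -0.08, beside -0.04.

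With median-ratio scaling *Slc30a10* was the only one of the 15 still called (-1.48, limma adjusted p = 0.014), and *Slc30a4* (0.43) and *Slc39a11* (0.32) came below the fold limit. The same scaling took the calls over all liver genes from 2622 higher and 384 lower to 985 higher and 935 lower. Leaving out 1 liver at a time, the call of *Slc30a4* was lost without Ctrl 1, Ctrl 2, Ctrl 3 or LKO 2 (adjusted p = 0.061, 0.054, 0.056 and 0.070 from limma), and that of *Slc30a10* without Ctrl 2 or LKO 2 (limma adjusted p = 0.054 and 0.051).

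**Figure D5:**
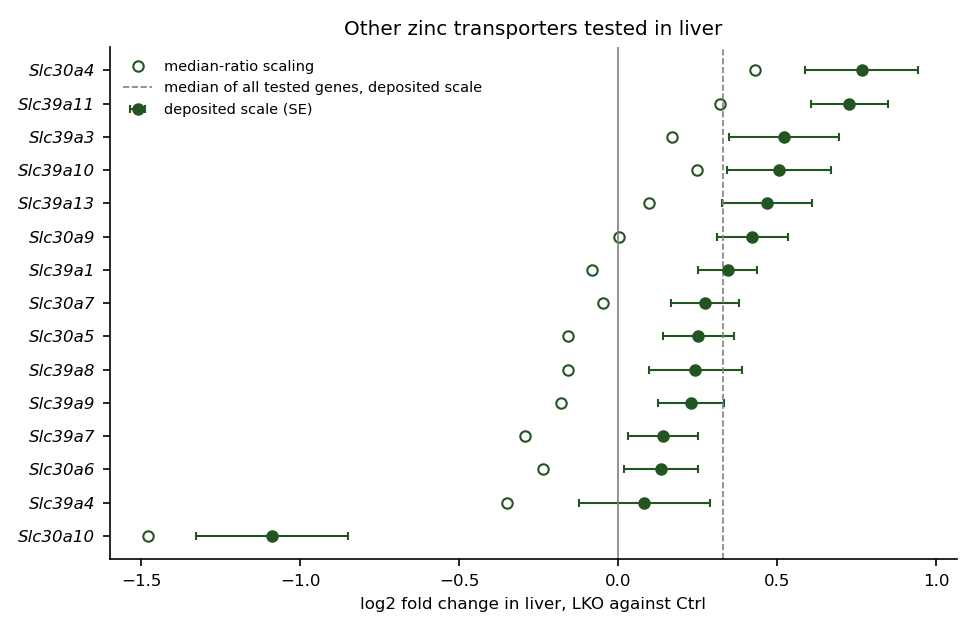
Log2 fold change of LKO against Ctrl in liver for the 15 other zinc transporters tested there, with filled points and standard errors for the deposited scale and open points for median-ratio scaling (n = 3 per group). *Slc30a10* lies below 0 on both scales (-1.09 and -1.48), and the others lie between 0.08 and 0.76 on the deposited scale, on both sides of the dashed line, the median of all tested genes at 0.33.

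In iWAT, GM and hypothalamus none of the 14, 12 and 18 tested transporters was called (limma, adjusted p), in tissues where 0%, 0% and 0.0217% of all genes were. With an unadjusted p under 0.05 in the place of the adjusted one, 1 was higher in iWAT, 1 lower in GM and 0 moved in hypothalamus, where 3.25%, 0.901% and 0.333% of all genes passed. The gene in iWAT was *Slc39a8*, an importer of zinc and manganese, with 1.92 ± 0.226 FPKM in Ctrl and 3.77 ± 1.28 FPKM in LKO (SD, n = 3; log2 fold change 0.68, limma adjusted p = 0.18). The gene in GM was *Slc30a2*, a vesicular transporter, with 6.75 ± 3.15 FPKM in Ctrl and 3.61 ± 0.613 FPKM in LKO (log2 fold change -0.68, limma adjusted p = 0.68). The first was lost from this count without LKO 3, and the second after median-ratio scaling, with a replicate block and without Ctrl 3, LKO 1 or LKO 3.

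Whether the LKO effect differed between the tissues was tested for the other transporters with 1 limma fit of all 24 libraries. Of 20 tested, 8 had an adjusted p under 0.05 for the interaction of genotype and tissue, beside 33.5% of all 15849 genes, and after median-ratio scaling 4 had (*Slc30a10*, *Slc39a6*, *Slc39a8* and *Slc39a11*), beside 22.5% of all genes. Both counts are near those shares, so that no trait of the transporter families is read from them. *Slc39a8* showed opposite differences, with a log2 fold change of 0.68 in iWAT and -0.28 in hypothalamus, neither of which passed an adjusted test within its tissue, and 0.24 in liver, which became -0.16 after scaling. *Slc30a10* fell in liver and had a log2 fold change of -0.06 in hypothalamus, where it was 7.07 ± 0.360 FPKM in Ctrl, and *Slc39a11* rose in liver and had -0.01 in iWAT and -0.09 in hypothalamus. *Slc39a6*, under the level required for the test in liver alone, was 0.683 ± 0.118 FPKM in Ctrl and 1.49 ± 0.504 FPKM in LKO livers (SD, n = 3).

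The genes of the metals that share carriers with zinc, and of the signals known to act on *Mt1* and *Mt2*, were described in the same way. The counts below stand beside 23.9% of all liver genes called higher and 3.50% called lower, with a median log2 fold change of 0.33, and after median-ratio scaling beside 985 higher and 935 lower of 10956, with a median of -0.04. Of 15 iron genes tested in liver 4 rose and 0 fell, with a median log2 fold change of 0.51 (0.12 after scaling). The 4 were *Hmox1*, which degrades heme (2.34), the exporter ferroportin *Slc40a1* (1.41) and the ferritin subunits *Ftl1* (1.24) and *Fth1* (1.13), with limma adjusted p-values of 9.3e-04, 0.0042, 0.0062 and 0.014. After median-ratio scaling 4 rose and 1, *Tfr2*, fell. *Hamp*, the liver hormone hepcidin, was 478 ± 189 FPKM in Ctrl and 781 ± 325 FPKM in LKO (SD, n = 3) and did not pass. Of 10 copper genes 3 rose and 1 fell (median 0.20, and -0.19 after scaling). The chaperone *Atox1* rose by 0.87, *Commd1* by 0.66 and *Cox17* by 0.65, and *Sco2*, which delivers copper to cytochrome oxidase, fell by 0.96 on the log2 scale. After scaling none rose and 3 fell, namely *Sco2*, *Ccs* and the importer *Slc31a1*.

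Of 10 glucocorticoid-responsive genes tested in liver 3 rose and 2 fell (median 0.29, and -0.13 after scaling). *Zbtb16* (2.16), *Sgk1* (1.87) and *Ddit4* (1.12) rose, whereas *Tsc22d3* and *Errfi1* fell by 1.82 and 1.02 on the log2 scale, and after scaling 2 rose and 2 fell. *Fkbp5* was 10.1 ± 4.90 FPKM in Ctrl and 24.1 ± 9.34 FPKM in LKO livers and did not pass (limma adjusted p = 0.054). Of 12 genes of the IL-6 and acute phase response 4 rose and 0 fell (median 0.46, and 0.11 after scaling), and after scaling 3 rose and 1, *Saa3*, fell. *Lcn2* (2.95), *Apcs* (2.66), *Il1rn* (2.39) and *Steap4* (0.75) rose, and the other 8 did not pass, with values of 0.13 for *Saa1* (-0.30 after scaling), 0.47 for *Saa2*, -0.36 for *Saa3*, -0.12 for *Orm1*, 0.74 for *Orm2* (limma adjusted p = 0.065), -0.58 for *Hp*, 0.45 for *Socs3* and -0.40 for *Fgb*. In the other 3 tissues no gene of these 4 lists was called with an adjusted p. With an unadjusted p under 0.05 and a fold of at least 1.5, which 3.25% of all genes passed in iWAT, 0.901% in GM and 0.333% in hypothalamus, *Zbtb16* had a log2 fold change of 1.86 in iWAT and 1.46 in hypothalamus, *Lcn2* of 1.24 in iWAT and 1.26 in hypothalamus and *Fkbp5* of 0.59 in hypothalamus, whereas *Hp* had -0.94 in iWAT and -0.91 in GM and *Errfi1* -0.96 in iWAT. In GM the hepatocyte markers summed to 18.5 to 246 FPKM in Ctrl and 11.0 to 89.0 FPKM in LKO. The adipocyte markers summed to 231 to 507 and 256 to 652 FPKM there. Mean *Hp* was 2064 FPKM in Ctrl liver, 2828 in Ctrl iWAT and 29.0 in Ctrl GM, and the part of such cells in its GM value was not tested. Whether the genes of these lists and the metallothioneins moved for a shared reason was not tested.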

How the data were processed

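Total RNA of 24 samples was made into libraries with the TruSeq RNA Library Prep Kit v2, which does not mark strand, and read as paired ends. The submitters' processing notes name Trimmomatic 0.32, HISAT2 2.0.5, Bowtie2 2.2.6, STAR 2.5.2b, StringTie 1.3.3b and the mm10 build, with no role given. The authors deposited FPKM per gene in 1 joined table and, per library, the coverage, FPKM and TPM of every gene. The deposited FPKM and TPM are scaled within each library, the deposited coverage is not scaled for depth, and scaling between libraries is not given in the sources used here. Depth was taken from the ratio of coverage to FPKM, and as these values are not counts, counting errors were not computed and count models not used.

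The 6 members were taken by symbol, and the members and gene lists were chosen with earlier results of these data known. Each tissue was fitted with limma 3.58.1 in R 4.3.3 (eBayes with trend) on log2(FPKM + 1), 3 LKO against 3 Ctrl libraries, for genes reaching 1 FPKM in 3 or more libraries. This understates changes of low genes. Members have no p-value for this contrast. The 12 Ctrl libraries were fitted for differences between tissues, for which members have no p-value either, and all 24 for the interaction of genotype and tissue. All tests are two-sided with Benjamini-Hochberg adjustment over all genes. The fits were also run on simulated independent normal values with planted shifts. That checks the code, and not whether the model holds for these data. Named genes were the members, the called genes of each list (or, with none called, the largest change with an unadjusted p under 0.05) and the 5 genes most like *Mt1* and *Mt2* by Pearson correlation. Other names were added after their values were seen. Alternatives tried were no filter, a pseudocount of 0.1, the deposited TPM, median-ratio scaling, a block for the replicate number and leaving out each library, and those of the interaction were added after seeing the data. RefSeq promoter windows (GRCm38, an entry for 5 of the 6 members) and GENCODE M21 transcripts were searched with Python 3.11.15 and pandas 2.3.3. Plots were drawn with matplotlib 3.10.9.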

Additional observations from a re-analysis of the deposited data

Results flagged for a closer look

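For 8 of 20 zinc transporters tested outside the 6 members, beside 33.5% of all 15849 genes, the difference between LKO and Ctrl was not the same in the 4 tissues, by the interaction of genotype and tissue in a limma fit of all 24 libraries with Benjamini-Hochberg adjustment. The adjusted p was 4.9e-04 for *Slc39a11*, 0.0011 for *Slc30a10*, 0.0045 for *Slc39a8*, 0.0066 for *Slc39a13*, 0.0081 for *Slc30a9*, 0.015 for *Slc39a6*, 0.020 for *Slc39a3* and 0.026 for *Slc30a2*. After median-ratio scaling it was 0.045 for *Slc39a11*, 6.9e-04 for *Slc30a10*, 9.9e-04 for *Slc39a8* and 0.046 for *Slc39a6*, and above the threshold for *Slc39a13* (0.52), *Slc30a9* (0.30), *Slc39a3* (0.51) and *Slc30a2* (0.063), with 22.5% of all genes under it. On both scales the count of transporters is near the share of all genes.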

How the results depend on the processing

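The log2 fold change of *Mt1* in liver ranged from 4.10 to 4.83 over 11 alternatives and that of *Mt2* from 5.15 to 5.90, and leaving out 1 library gave 4.31 to 4.83 and 5.34 to 5.89. Of 253 values of the members under alternatives, 250 moved by less than the SD of the replicates, the exceptions being *Mtf1*, *Slc30a1* and *Slc39a14* in liver after median-ratio scaling. Of the 23 such differences, 11 changed sign under at least 1 alternative, none of them one of *Mt2*. The number of zinc transporters called in liver was 3, and it was 5 with a pseudocount of 0.1, 7 with the deposited TPM, 1 with median-ratio scaling and 1 to 4 without 1 library (1 without Ctrl 2 or LKO 2). In the other tissues it was 0 under every alternative run. The interaction was found for 8 transporters, 4 after median-ratio scaling, 12 with the deposited TPM, 7 with a replicate block and 6 to 11 without 1 library. Replicate numbers were not taken to pair the samples, since the labels do not say what they stand for. Within tissues the correlations of same-numbered deviations ranged from -0.13 to 0.35, and those of differently numbered ones from -0.42 to 0.30 (across tissues this was not checked). These ranges do not settle whether the numbers pair the samples. A replicate block left 3 transporters called in liver. It took the calls over all genes from 3006 to 3031 in liver and from 3 to 0 in hypothalamus. The cause of these changes was not tested. Counting error, largest for low genes such as *Mt3* in iWAT and GM, could not be given.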
